A study of Homo sapiens with 10 samples.

Results

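Open chromatin was described around 10 genes grouped here as WNT-driven genes of the intestinal stem cell. They were LGR5, ASCL2, AXIN2, RNF43, ZNRF3, EPHB2, EPHB3, SMOC2, OLFM4 and LRIG1. The cells were DLD-1, a human colorectal adenocarcinoma line. In these cells the transcription factor GATA6 had been tagged for degradation, knocked out or left as WT. The grouping rests on known biology, and whether WNT drives each gene in these cells was not tested. The rule that assigns regions to the genes uses no measured level. Each was given a window of its RefSeq gene body plus 50 kb on either side. Peaks of the 10 libraries inside these windows were merged into 167 regions for the degron lists, of 120452 in the genome, and into 217 regions for the KO and WT lists, of 157584. The assay was ATAC-seq, which marks open DNA with a transposase that loads adapters into it. The AID_ctrl, AID_aux and AID_wash libraries come from DLD-1 cells of genotype GATA6-AID-IAA7, in which GATA6 carries an auxin-inducible degron, a tag through which auxin (IAA) sends the protein to the proteasome. AID_ctrl cells are labelled with auxin for 0 h and were read as untreated, AID_aux cells had 12 h of auxin, and AID_wash cells had been cleared of auxin (their labelled time is 1, without a unit). The KO libraries come from DLD-1 cells made GATA6-deficient with CRISPR/Cas9, and the WT libraries from DLD-1 cells labelled WT. All 3 degron groups carry the tagged GATA6, so AID_ctrl is not the same as WT. The labelled protocol used 500 µM IAA on positive clones, without the number of clones behind the degron or KO cells. Each of the 5 groups had 2 libraries, and the labels do not say whether they were separate cultures, so the spread between replicates may be technical.

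At the base of the intestinal crypt, WNT ligands keep beta-catenin stable, and beta-catenin with TCF/LEF factors switches on a program that holds cells in the stem state. Several of its targets feed back on the pathway: LGR5 binds R-spondins and strengthens the signal, RNF43 and ZNRF3 remove Frizzled receptors from the membrane, and AXIN2 is a scaffold of the complex that destroys beta-catenin. DLD-1 cells carry a truncated APC, so the pathway runs in them without ligand. GATA6 is a zinc-finger factor of endoderm and of the gut epithelium.

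The degron lists held 154150 to 198493 peaks per library, but several peaks could share 1 interval, and the distinct intervals numbered 77883 to 101479. The KO lists held 130311 and 116231 intervals and the WT lists 92814 and 65939. Counted in intervals, every degron list was shorter than both KO lists. The intervals differ in width, with medians of 887 to 974 bp in the degron lists and 500 bp in the KO lists. In bases, the degron lists covered 56.7 to 70.2 Mb and the KO lists 65.2 and 58.1 Mb. Without read counts the depth behind each list is unknown, and a missing call is not evidence of closed chromatin. Of 10 colon epithelial marker genes, 7 had a called gene start in all 10 libraries, among them CDX2, EPCAM and KRT20, while CDX1 had none in any and VIL1 none in KO or WT. The start of LGALS4, the remaining one, was called in neither AID_aux library, in both AID_ctrl and both AID_wash libraries, in KO replicate 2 alone of the KO libraries and in both WT libraries. Of 6 fibroblast and endothelial markers, none was called in all 10 libraries and 3 were called in none (COL1A1, PDGFRB and CDH5). Of 5 blood markers, CD14 and one end of CD3E were called in all 10 libraries.

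Most windows were rich in regions that every library of the degron line called. RNF43 had 37 regions with 20 in all 6 degron libraries, EPHB2 29 with 17, ZNRF3 26 with 17 and AXIN2 24 with 13. SMOC2 had 15 with 8, LGR5 11 with 8, EPHB3 10 with 7, ASCL2 7 with 6 and LRIG1 7 with 4. OLFM4, which encodes a secreted glycoprotein of crypt stem cells, stood at the other end with 1 region, called in all 6. Gene bodies ran from 2.09 kb (ASCL2) to 227 kb (SMOC2), so the windows differed in length. The sum was 101 of 167 regions, or 60.5%, beside 51.6% of all regions in the genome. In the KO and WT lists, 81 of 217 regions (37.3%) were called in all 4 libraries, beside 31.9% of all regions. Of the degron regions, 98 lay in gene bodies and 69 in the flanks, and 20 of the flank regions lay inside another gene, such as KREMEN1 beside ZNRF3 and TSPOAP1 beside RNF43.

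**Figure D1:**
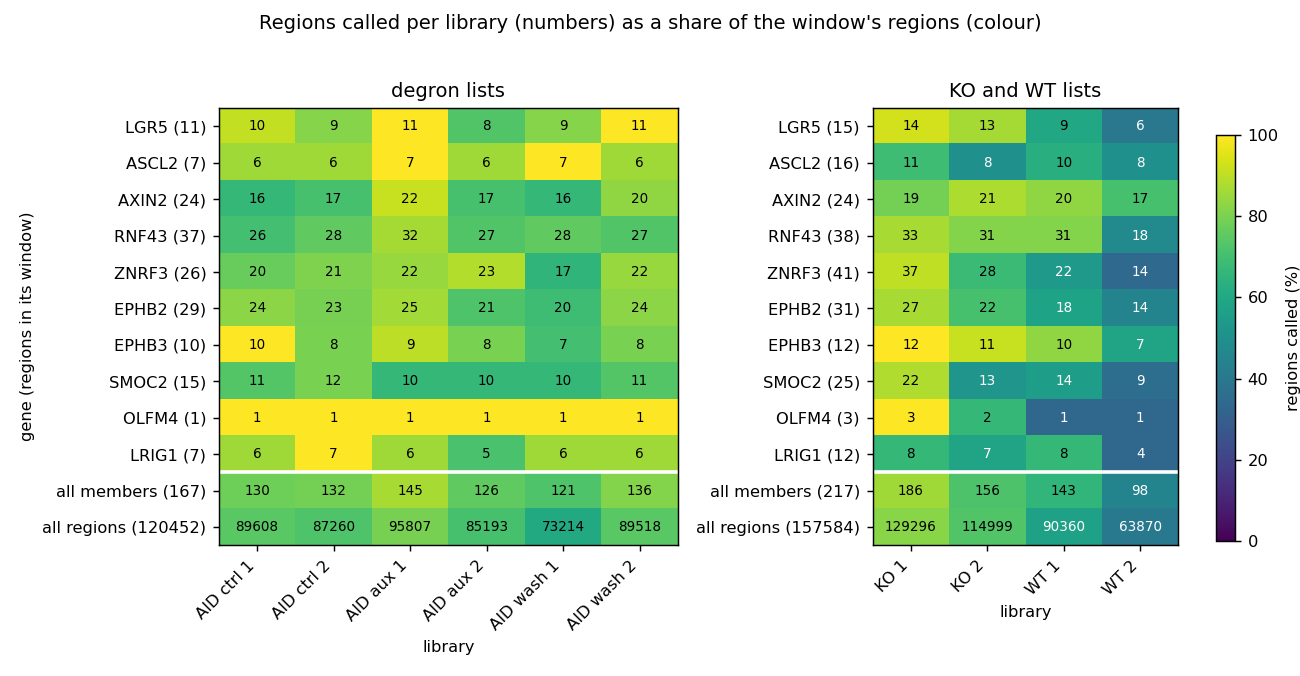
Number of regions called by each library (printed) and their share of the regions in each gene's window (colour, in percent), for the degron lists (left) and the KO and WT lists (right), with all 10 genes together and all regions of the genome in the bottom rows. In the degron libraries 121 to 145 of 167 regions were called, while KO libraries called 186 and 156 and WT libraries 143 and 98 of 217.

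The first question was whether the genes' own start sites were open. A start counted as called when a peak lay within 500 bp of it, or of either gene end for LGR5, ASCL2, AXIN2 and ZNRF3. ASCL2, AXIN2, RNF43, ZNRF3, EPHB3 and LRIG1, 6 of the 10 genes, were called in all 10 libraries. Among 15811 protein-coding genes with a RefSeq promoter entry, 55.4% were called in all 10 libraries. Those genes were read at their start alone, while ASCL2, AXIN2 and ZNRF3 count through either end, and of the 6 members with a promoter entry 3 were called in all 10 libraries (RNF43, EPHB3 and LRIG1). The LGR5 lower-coordinate end was called in 9 libraries, all but WT replicate 1. WT replicate 1 did call the merged KO and WT region there (chr12:71439373-71440365), through a window past the 500 bp limit. The EPHB2 start was called in all 6 degron libraries and both KO libraries but in neither WT library. WT replicate 1 did call a region centred 0.829 kb inside EPHB2, just past the 500 bp limit, and WT replicate 2 did not. Starts with calls in both KO and no WT library made up 1.70% of the 15811 genes. No library called the starts of SMOC2, which encodes a secreted matricellular protein, or OLFM4, a state shared by 31.7% of the 15811 genes.

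The sequences just upstream of the start are shown for 3 genes with a called start (EPHB2, EPHB3, LRIG1) and for the 2 genes without one, so that their base composition can be compared. They are the 250 bases before the RefSeq start (GRCh38.p14), written 5′ to 3′ on the strand of the gene, and capitals mark a TCF/LEF motif.
EPHB2 (chr1:22710588-22710837, plus strand): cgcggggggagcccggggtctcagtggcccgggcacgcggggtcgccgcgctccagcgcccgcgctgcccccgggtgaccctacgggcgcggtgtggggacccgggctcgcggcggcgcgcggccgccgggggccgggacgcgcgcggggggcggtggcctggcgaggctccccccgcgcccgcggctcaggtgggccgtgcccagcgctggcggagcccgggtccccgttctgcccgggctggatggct
EPHB3 (chr3:184561535-184561784, plus strand): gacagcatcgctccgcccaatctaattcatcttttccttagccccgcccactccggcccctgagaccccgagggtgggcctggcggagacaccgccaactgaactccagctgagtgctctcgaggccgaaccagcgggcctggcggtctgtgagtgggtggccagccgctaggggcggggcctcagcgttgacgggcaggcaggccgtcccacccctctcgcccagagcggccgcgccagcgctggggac
LRIG1 (chr3:66501122-66501371, minus strand): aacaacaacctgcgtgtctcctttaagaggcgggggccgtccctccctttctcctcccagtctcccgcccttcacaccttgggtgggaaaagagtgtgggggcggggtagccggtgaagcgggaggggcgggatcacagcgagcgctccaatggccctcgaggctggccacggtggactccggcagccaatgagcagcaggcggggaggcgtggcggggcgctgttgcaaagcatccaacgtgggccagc
SMOC2 (chr6:168440934-168441183, plus strand): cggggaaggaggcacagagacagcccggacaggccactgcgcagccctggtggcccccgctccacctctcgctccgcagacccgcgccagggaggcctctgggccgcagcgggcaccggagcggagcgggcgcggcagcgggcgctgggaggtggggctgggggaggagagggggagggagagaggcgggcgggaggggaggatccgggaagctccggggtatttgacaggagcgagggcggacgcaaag
OLFM4 (chr13:53028563-53028812, plus strand): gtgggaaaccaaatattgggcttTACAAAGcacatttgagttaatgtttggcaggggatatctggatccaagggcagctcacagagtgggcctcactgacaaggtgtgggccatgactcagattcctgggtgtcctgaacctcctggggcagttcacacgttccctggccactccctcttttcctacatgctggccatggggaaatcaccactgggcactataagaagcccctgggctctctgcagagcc
EPHB2 held 84.8% GC and 42 CpG in these bases, EPHB3 70.0% and 21, and LRIG1 66.8% and 18. SMOC2, without a call, held 75.2% GC and 24 CpG, between the values of EPHB3 and EPHB2. OLFM4 held 54.0% GC and 1 CpG, and RNF43, called in all 10 libraries, held 56.0% and 4. The median over genes called in all 10 libraries was 65.6% GC, and over genes called in none 54.0%. TCF/LEF motifs were searched as CTTTG followed by any pair of A or T bases, and GATA motifs as GATA with A or T before it and A or G after it, both on either strand. Of the 6 genes with an entry, OLFM4 alone held a TCF/LEF match, 227 bases before its start, and none held a GATA match. Across protein-coding genes 9.65% of these stretches held the TCF/LEF motif and 17.6% the GATA motif.

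The called starts were mostly of middling height. The fold enrichment of a peak is the authors' value, its height over the local background of its own library, and values of different libraries are set side by side as a description, without a test. LRIG1, which encodes a membrane protein that restrains EGF receptors, had the highest start, with 8.12 and 9.69 in AID_ctrl, 10.6 and 11.2 in AID_aux and 10.4 and 10.1 in AID_wash. EPHB2, a receptor of ephrins that positions cells along the crypt, had a low one, with 4.31 and 3.68 in AID_ctrl, 4.77 and 4.20 in AID_aux and 3.79 and 3.45 in AID_wash. The AID_ctrl replicate 2 value came from a separate region just inside the gene (chr1:22711121-22712159). That library did not call the region that gave the other values (chr1:22709791-22710827). The AID_aux values of LRIG1 lay above both AID_ctrl values, and those of EPHB2 overlapped them in part. LGR5 had 6.82 and 6.52 in AID_ctrl, 6.33 and 6.82 in AID_aux and 7.88 and 6.55 in AID_wash at its lower-coordinate end. AXIN2 had 3.58 and 3.35 in AID_ctrl, 2.98 and 4.48 in AID_aux and 4.04 and 3.22 in AID_wash at its higher-coordinate end. For both genes AID_aux overlapped AID_ctrl.

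**Figure D2:**
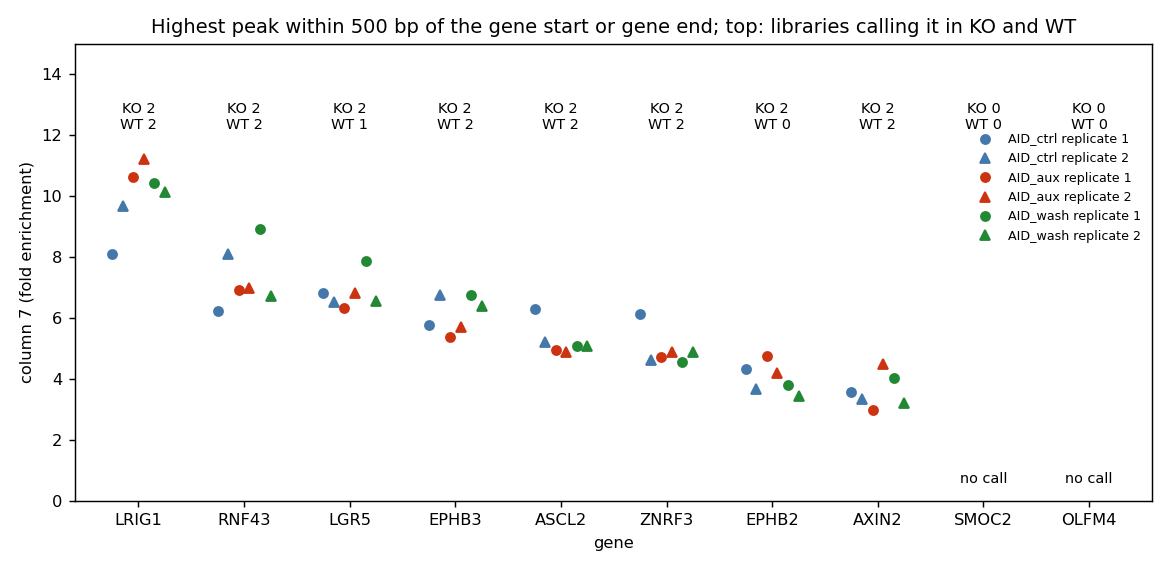
Fold enrichment (column 7 of the deposited lists) of the highest peak within 500 bp of the gene start, or of the called gene end where strand was not given, in each degron library, with the number of KO and WT libraries (of 2 each) that called it printed above. All 8 genes with a call have a value in every degron library, LRIG1 highest, and SMOC2 and OLFM4 have no call.

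In no window was the gene start or called gene end the strongest region. The highest mean fold enrichment over the 6 degron libraries belonged to a region 21.3 kb upstream of the EPHB2 start (chr1:22688997-22690077, hg38), at 18.1 and 19.8 in AID_ctrl, 19.2 and 14.1 in AID_aux and 18.1 and 17.4 in AID_wash. SMOC2 was led by a region 27.1 kb inside the gene, with a mean of 16.7. RNF43 was led by one 29.8 kb upstream of its start, inside another gene, HSF5, with a mean of 15.8. LGR5, the R-spondin receptor, was led by a region 118 kb from its lower end and inside the gene (chr12:71556437-71557867), with 13.3 and 12.3 in AID_ctrl, 18.4 and 14.4 in AID_aux and 17.5 and 14.7 in AID_wash. These 4 regions all stood among the highest peaks of their lists, above the 93rd percentile in each library. EPHB3 (mean 14.7), AXIN2 (13.7), LRIG1 (13.6) and ASCL2 (11.3) were led by regions outside the gene body, that of LRIG1 inside SLC25A26. ZNRF3 was led by a region inside the gene (9.30), and the only OLFM4 region lay 17.9 kb upstream of its start (6.32). Across all member peaks the median fold enrichment was 4.19 to 4.50 per library, beside list medians of 5.17 to 5.57, so the median peak near these genes lay below the median of every list.

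The comparison of AID_aux with AID_ctrl asked how the regions' calls differed after 12 h of auxin. GATA6 protein was not measured in these data, and no library came from untagged cells labelled with auxin. Most calls were shared: 108 of 161 regions (67.1%) were retained, meaning called by all 4 libraries, beside 59.6% of all regions. A region was lost when both AID_ctrl libraries and neither AID_aux library called it, and gained in the reverse case. In all, 3 of 161 regions (1.86%) were lost, beside 2.36% of all regions, and 5 were gained (3.11%), beside 2.58%. Both shares lay near those of the genome. LGR5, ASCL2, EPHB3, OLFM4 and LRIG1 lost and gained none. A set of 2 libraries against 2 cannot give a two-sided exact p below 0.333, so no p is given for any comparison.

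The lost region with the highest mean in AID_ctrl lay 100.3 kb inside SMOC2 (chr6:168541047-168542013), with fold enrichments of 6.30 and 4.54 in AID_ctrl, no call in AID_aux, and 3.91 and 4.12 in AID_wash. A separate small peak 98.6 kb inside the gene was called in AID_aux replicate 2 alone, at 4.34. The second lay 70.0 kb inside EPHB2 (chr1:22780761-22781000), with 4.02 and 6.10 in AID_ctrl and no call in AID_aux or AID_wash. The last lay 18.5 kb inside RNF43 (chr17:58398892-58399101), with 2.84 and 2.39 in AID_ctrl and 2.07 in AID_wash replicate 2. Of the gained regions, 2 belonged to ZNRF3, the membrane ligase that pairs with RNF43. One lay 18.6 kb below its lower end (chr22:28864612-28865291), with 6.05 and 4.37 in AID_aux, and one 27.3 kb inside (chr22:28910744-28911060), with 2.65 and 2.97, and neither was called in AID_ctrl or AID_wash. EPHB2 gained a region 169 kb inside the gene (chr1:22879973-22880508) with 4.91 and 4.43 in AID_aux and no call in AID_ctrl or AID_wash. AXIN2 gained one 55.7 kb from its lower end (chr17:65584175-65584359), with 2.89 and 2.95, and RNF43 one 78.4 kb from its start (chr17:58338867-58339324), with 2.44 and 3.06. Of the 5, 4 had no call in AID_wash. The same share over all regions gained with auxin was not computed, so this count is a description. With 1 library at a time removed, the counts were 11 lost and 9 gained (AID_aux replicate 1 removed), 4 and 15 (AID_aux replicate 2), 6 and 8 (AID_ctrl replicate 1), and 7 and 9 (AID_ctrl replicate 2).

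**Figure D3:**
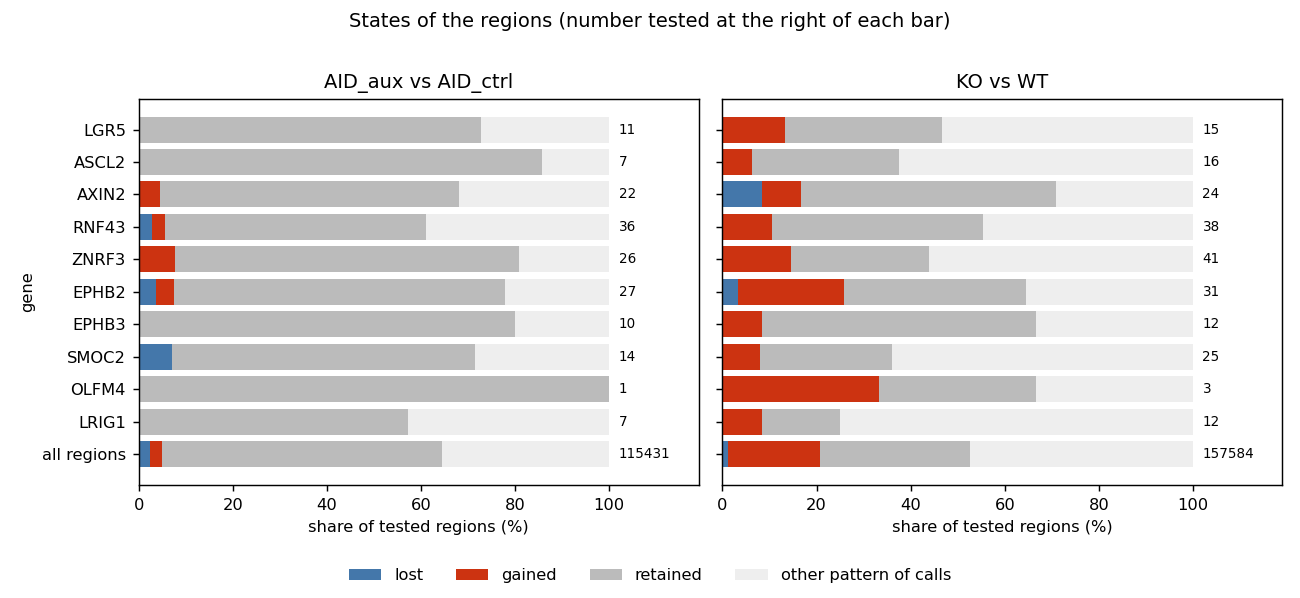
Share of tested regions (percent; those called by at least 1 of the 4 libraries) that were lost, gained, retained or had another pattern of calls, by gene and for all regions, in AID_aux against AID_ctrl (left) and KO against WT (right). Retained regions dominate on the left, where 108 of 161 were retained, while on the right 27 of 217 were gained and 3 lost.

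Among the 108 retained regions, the fold enrichments of a few stood apart. Regions were counted when the 2 groups did not overlap and their means differed at least 1.5 times. In AID_aux 3 were lower than in AID_ctrl, beside 2.06% of all retained regions (2.78% of these), and 1 was higher, beside 1.85% (0.926% of these). The median ratio of AID_aux to AID_ctrl was 1.01 over these regions and 1.02 over all retained regions. Of the 3 lower regions, 2 were in SMOC2. The region 156.1 kb inside the gene (chr6:168596444-168598126) had 6.05 and 7.43 in AID_aux and 14.0 and 15.2 in AID_ctrl, a ratio of 0.460. In AID_wash it had 13.6 and 14.0. Its rank went with its height: it stood at the 59.4th and 69.9th percentile of the AID_aux lists and at the 97.3rd and 98.3rd of the AID_ctrl lists. The authors' −log10 p there was 58.3 and 62.0 in AID_ctrl, 11.3 and 13.2 in AID_aux, and 47.1 and 61.0 in AID_wash. The summits of all 6 libraries fell within 15 bp of each other. The region 58.5 kb inside SMOC2 (chr6:168499063-168500237) had 7.36 and 9.69 in AID_aux and 12.9 and 12.7 in AID_ctrl (ratio 0.665). In AID_wash it had 13.6 and 14.1. Both places were also called in the KO and WT lists, which give no height: the first by all 4 libraries, the second by both WT libraries and KO replicate 1.

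LRIG1 held the other lower region, 28.5 kb inside the gene (chr3:66472113-66473167), with 7.06 and 6.56 in AID_aux and 11.3 and 12.5 in AID_ctrl (ratio 0.572). In AID_wash it had 10.8 and 11.9, and all 4 KO and WT libraries called it. The LRIG1 start, in contrast, was higher in AID_aux than in AID_ctrl, as given above, although by less than 1.5 times. The region that was higher in AID_aux lay 24.5 kb inside EPHB2 (chr1:22734757-22736002), with 7.03 and 7.38 in AID_aux and 4.98 and 4.17 in AID_ctrl (ratio 1.57). In AID_wash it had 4.63 and 4.67. In all 4 of these regions both AID_wash values were nearer to the AID_ctrl mean than to the AID_aux mean, as in 48.0% of the 2262 regions of the genome that were picked in the same way and called in both AID_wash libraries. Regions were picked here by their AID_aux and AID_ctrl values, so the comparison is a description. Other strong SMOC2 regions did not share this pattern. The strongest, 27.1 kb inside the gene, had 14.0 and 19.7 in AID_ctrl, 16.9 and 15.5 in AID_aux and 15.9 and 18.4 in AID_wash, and the one 200.2 kb inside had 12.0 and 11.6 in AID_ctrl, 13.3 and 13.1 in AID_aux and 12.7 and 13.0 in AID_wash. Fold enrichments come from separate lists of differing length, and no read counts were at hand to test them. Without AID_aux replicate 1 the count of lower regions was 7, without either replicate 2 it was 4, and without AID_ctrl replicate 1 it was 3, while the higher count was 2 without AID_ctrl replicate 1 and 1 without any of the other 3.

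**Figure D4:**
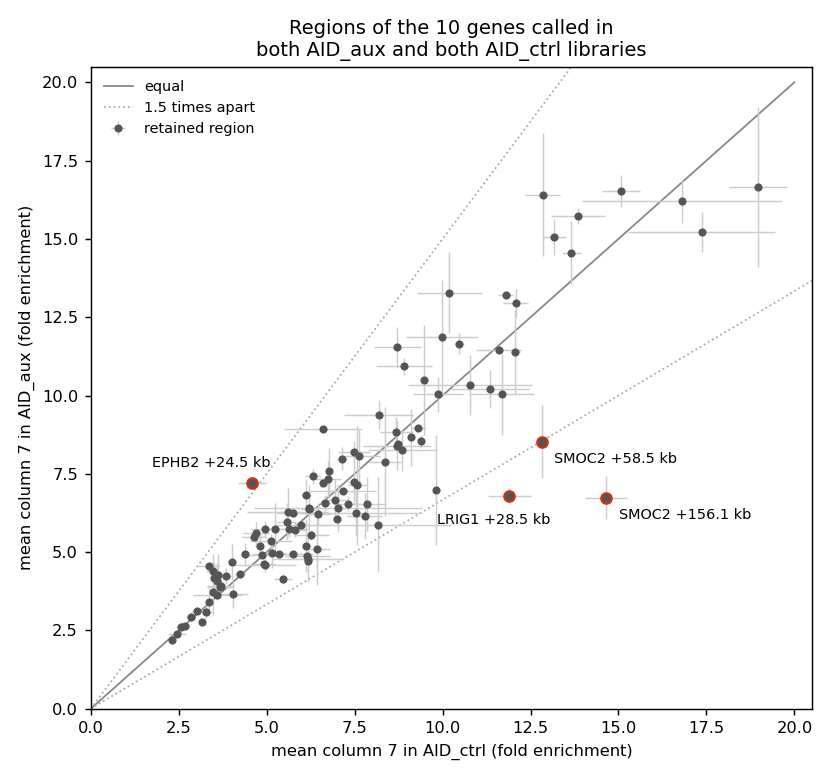
Mean fold enrichment (column 7) in AID_aux against AID_ctrl for the 108 retained regions, with bars spanning the 2 libraries of each group. Most lie near the line of equality, and the 4 named regions in red lie outside the 1.5-times lines without overlap between groups, 2 of them in SMOC2.

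**Figure D5:**
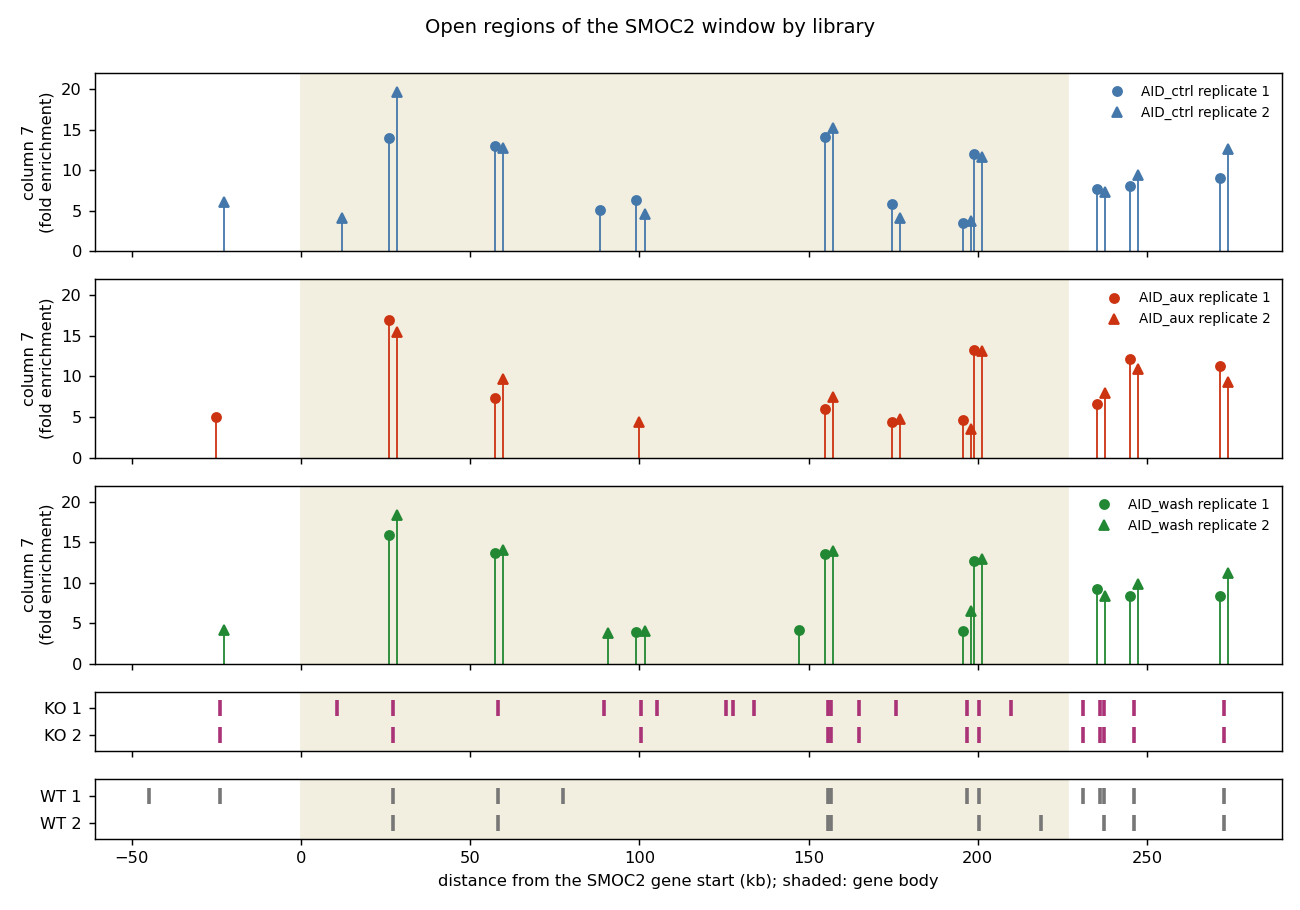
Fold enrichment (column 7) of each SMOC2 region by distance from the gene start in kb, for both replicates of AID_ctrl, AID_aux and AID_wash (replicates are set slightly apart), with ticks below for the regions called in KO and WT. The regions at 58.5 and 156.1 kb are lower in AID_aux than in AID_ctrl or AID_wash, the region at 100.3 kb has no call in AID_aux, and no library has a call at the start.

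The AID_wash libraries asked what followed removal of auxin. Against AID_aux, 104 of 163 regions (63.8%) were retained, beside 57.4% of all regions, 7 were lost (4.29%), beside 3.48%, and 3 were gained (1.84%), beside 1.21%. With the degron lists shortened to equal length the order turned, with 3 lost and 5 gained. Of the 7 lost regions, 4 were among the 5 gained with auxin: those of AXIN2, EPHB2 and ZNRF3 given above. The others were an EPHB2 region 29.9 kb upstream of the start (chr1:22680489-22681409; 5.95 and 5.24 in AID_aux), an RNF43 region 55.3 kb inside the gene (chr17:58361998-58362458; 3.22 and 2.91) and a SMOC2 region 175.7 kb inside (chr6:168616724-168617130; 4.37 and 4.81). The 3 gained were the SMOC2 region at 100.3 kb, an EPHB2 region at 93.3 kb (chr1:22803872-22804313; 4.61 and 4.14 in AID_wash) and an AXIN2 region near its higher end (chr17:65560237-65560481; 2.25 in both). The AXIN2 values were among the lowest of the AID_wash lists, at the 0.456th and 0.890th percentile. This comparison and the one of AID_aux with AID_ctrl share the AID_aux libraries, so their counts are not independent. How often regions gained with auxin were lost again in AID_wash was not computed over all regions. In fold enrichment, 3 of 104 retained regions (2.88%) were at least 1.5 times higher without overlap in AID_wash than in AID_aux, beside 1.17% of all retained regions. They were those of SMOC2 and LRIG1 described above. Another 2 (1.92%) were lower, beside 3.25%. These were the EPHB2 region at 24.5 kb and one 23.4 kb below the lower end of LGR5 (chr12:71415154-71416276). The LGR5 region had 7.15 and 6.09 in AID_wash and 10.1 and 13.7 in AID_aux.

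Against AID_ctrl, the AID_wash libraries retained 106 of 155 regions (68.4%), beside 60% of all regions, lost 4 (2.58%), beside 2.67%, and gained 2 (1.29%), beside 0.685%. With lists of equal length 2 were lost and 5 gained. Of the 4 lost regions, 3 were in EPHB2: the one lost with auxin, the one 29.9 kb upstream, and one 21.1 kb inside (chr1:22731796-22732151; 3.82 and 4.06 in AID_ctrl). The other was the SMOC2 region at 175.7 kb (5.85 and 4.07 in AID_ctrl). Gains were the AXIN2 region near its higher end and a region 12.7 kb below LGR5 (chr12:71426354-71426552; 5.02 and 4.12 in AID_wash, and 4.03 in AID_aux replicate 1). The LGR5 region 23.4 kb below the gene was lower in AID_wash than in AID_ctrl (11.0 and 8.95). It was 1 of 106 retained regions (0.943%), beside 2.07% of all retained regions. An LRIG1 region 93.2 kb inside the gene (chr3:66407618-66408228) was higher, with 12.3 and 9.03 in AID_wash and 7.71 and 5.48 in AID_ctrl. It too was 1 of 106 (0.943%), beside 0.286%. The AID_wash replicate 1 list was the shortest of the degron lists. Without AID_wash replicate 2, which leaves that library alone, 14 regions were lost against AID_aux and 14 against AID_ctrl, while without replicate 1 the counts were 9 and 4. Leaving out other libraries gave 11 and 15 lost against AID_aux (without AID_aux replicates 1 and 2) and 8 and 7 lost against AID_ctrl (without AID_ctrl replicates 1 and 2). Gained counts were 7, 5, 9 and 6 against AID_aux without AID_aux replicates 1 and 2 and AID_wash replicates 1 and 2, and 4, 6, 6 and 9 against AID_ctrl without AID_ctrl replicates 1 and 2 and AID_wash replicates 1 and 2.

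The knockout asked what a lasting loss of GATA6 went with. Every one of the 10 genes had at least 1 region that both KO libraries and neither WT library called. The share of all genes with such a region was not computed. Of 217 regions, 27 were gained (12.4%), beside 19.5% of all regions, and 3 were lost (1.38%), beside 1.24%. With windows of 10 kb in place of 50 kb, 19 regions were gained and ASCL2 and OLFM4 had 0. With all 10 lists merged, EPHB3 had 0 such regions, since its gain joined a neighbouring window that all 4 KO and WT libraries called. Retained regions were 81 of 217, beside the 31.9% of all regions given above. Gained regions were thus a smaller share near these genes than in the genome, and in the genome too gains outnumbered losses. The KO lists covered 65.2 and 58.1 Mb and the WT lists 46.4 and 33.0 Mb, and the part of list length in the gains was not tested, since these lists hold no score by which to shorten them. With 1 library removed, the counts were 31 gained and 5 lost (KO replicate 1), 60 and 9 (KO replicate 2), 63 and 9 (WT replicate 1), and 30 and 17 (WT replicate 2).

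EPHB2 gained 7 of its 31 tested regions, ZNRF3 6 of 41, RNF43 4 of 38 and LGR5 2 of 15. AXIN2 gained 2 of 24, SMOC2 2 of 25, ASCL2 1 of 16, EPHB3 1 of 12, OLFM4 1 of 3 and LRIG1 1 of 12. The EPHB2 gain nearest its start was the start region itself (chr1:22710121-22710632), 0.462 kb upstream. RNF43 gained a region 2.70 kb inside the gene (chr17:58414581-58415086) and EPHB3 one 4.82 kb inside (chr3:184566335-184566874). Both overlapped regions called in all 6 degron libraries. For the genes without strand the distance is to the nearer gene end: AXIN2 gained a region 2.04 kb beyond its higher end (chr17:65563433-65563933) and ZNRF3 one 13.2 kb inside its higher end (chr22:29043970-29044587). For the remaining genes the nearest gains lay farther out: 42.3 kb beyond the higher end of ASCL2 (chr11:2312672-2313172), 46.5 kb below LGR5 (chr12:71392407-71392907), 47.9 kb upstream of OLFM4 (chr13:52980626-52981169), 98.3 kb inside LRIG1 (chr3:66402506-66403128) and 100.6 kb inside SMOC2 (chr6:168541480-168542044). The 3 lost regions were 2 of AXIN2, 28.9 and 64.7 kb from its lower end (chr17:65557224-65557736 and chr17:65592980-65593494), and one 33.8 kb upstream of EPHB2 (chr1:22676756-22677336). Of the 27 gained regions, 7 overlapped calls in all 6 degron libraries, 13 in some and 7 in none. Of the 3 lost, the first AXIN2 region overlapped calls in all 6, the other in 1 and the EPHB2 region in none. The same split over all regions of the genome was not computed, so these counts are a description. An overlap of 1 bp with a wider degron region sufficed. At the EPHB3 gain, a ZNRF3 gain 27.8 kb inside its lower end (chr22:28911151-28911662) and the first AXIN2 loss, that region also spanned a neighbouring window. Each time the neighbour was retained in KO and WT, so the calls may belong to it.

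The regions lost or gained with auxin were then looked up in the knockout. Of the 5 gained with auxin, 1 (20%) was also gained in KO against WT, the EPHB2 region 169 kb inside the gene, beside 37.2% of all regions gained with auxin. Of the 3 lost with auxin, 0 were lost in KO against WT, beside 7.88% of all regions lost with auxin. The SMOC2 region at 100.3 kb was lost with auxin and gained in KO, where both KO libraries and neither WT library called it, as were 14.8% of all regions lost with auxin. For 2 of the others, one each of AXIN2 and ZNRF3, no KO or WT library had a call, and the other 4 were mixed. Over all 10 lists merged together, 74 of 220 regions (33.6%) were called by every library, beside 26.8% of all regions, and 20 (9.09%) were called in degron libraries alone, beside 10.5%. Another 56 (25.5%) were called in KO or WT libraries alone, beside 29.6%, and 32 of these (14.5%) in KO libraries alone, beside 18.0%. Of the 32, ZNRF3 held 10 (of its 38 regions) and SMOC2 6 (of 25).

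Other genes of the pathway were set beside them. In a list of 20 further WNT target and stem cell genes, 5 regions were lost, 6 gained and 146 retained of 231 in AID_aux against AID_ctrl. In a list of 21 receptors and core components, 8 were lost, 6 gained and 183 retained of 286, with 2 losses at DVL1, a transducer downstream of Frizzled, and at most 1 at any other gene of either list. In AID_wash against AID_aux the lists lost 8 of 224 and 7 of 279 regions and gained 3 and 4, with 2 losses at NKD1, a feedback inhibitor of WNT signalling. In AID_wash against AID_ctrl they lost 9 of 222 and 3 of 281 and gained 1 each. In KO against WT the target list had 50 gained and 4 lost regions of 304 and the receptor list 60 and 5 of 352, and 18 of 20 and 18 of 21 genes had at least 1 gain. The genes with the most gains were TNFRSF19 (11), a TNF-receptor relative of crypt stem cells, TCF7L2 (10), the main TCF factor of the gut, and CD44 and LGR6 (6 each). FZD5, a Frizzled receptor, had 2 of the losses. The shares gained in KO, 16.4% and 17.0%, lay below the 19.5% of all regions, as for the 10 genes.

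The genes most like them in the share of regions called across the 10 libraries were GARNL3, CMIP and PLCG2, of 3629 protein-coding genes with at least 20 regions. Their mean absolute differences from the shares over the 220 regions were 2.05, 2.19 and 2.38 percentage points.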

How the data were processed

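ATAC-seq peak lists of 10 libraries were analysed. The submitters' processing notes list MACS2 2.1.1 with Bowtie2 2.4.2, Trim Galore 0.6.10, Picard and build hg38. Settings and blacklist filters, like any transposase offset, were left not given in the sources used here. Each of the 6 deposited degron lists gives, per peak, a score, a fold enrichment ratio (column 7) and −log10 values of p and of q. The smallest deposited −log10 p was 5.00. The 4 deposited KO and WT lists give coordinates of 500 bp windows alone, so groups were compared only within a family, and all 10 lists were merged only to count shared calls. Coordinates are hg38, counted from 1.

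Peaks on chromosomes 1 to 22 and X that overlapped or touched were merged within a family, and a library called a region by an overlap of 1 bp. A region was tested when at least 1 of the 4 libraries compared called it. Fold enrichment per region is the highest peak of a library there. Gene bodies are from RefSeq GRCh38.p14, and promoter stretches from the RefSeq promoter table, which held RNF43, EPHB2, EPHB3, SMOC2, OLFM4 and LRIG1. For genes without strand, either end stood for the start. Calculations used Python 3.11.15, numpy 2.4.6 and pandas 2.3.3 and were tested on simulated lists. The number of unused columns of per-sample values was 0.

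The members and lists were chosen with earlier results of these data known. The regions named were each member's start and strongest region, all lost or gained in the degron comparisons, all lost in KO, and the KO gain nearest each start. From the other lists, up to 3 genes with the most lost or gained regions were named. The count of fold enrichments 1.5 times apart and its alternative settings were added after the values were seen, as were the genome-wide shares beside calls shared between the degron and KO lists.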

Additional observations from a re-analysis of the deposited data

Results flagged for a closer look

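The SMOC2 region 100.3 kb inside the gene (chr6:168541047-168542013, hg38) was singled out because its calls moved in opposite directions with auxin and in KO. Neither AID_aux library and both AID_ctrl libraries called it, while both KO libraries and neither WT library did. Its mean fold enrichment over the degron libraries that called it was 4.72, which is below the median of every degron list. The difference between the 2 effects was not tested, and the degron and KO lists were made in different formats.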

How the results depend on the processing

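No paired analysis was possible because the results are counts of calls that come from no test. Whether more regions were lost or gained turned in all 3 degron comparisons under some setting. For AID_aux against AID_ctrl (3 lost, 5 gained) the counts were 3 and 2 with windows of 10 kb, 4 and 0 with the top 50% of each list, and 11 and 9 without AID_aux replicate 1. For the AID_wash comparisons this was so with equal-length lists, as given below, and for AID_wash against AID_ctrl also without AID_wash replicate 1 (4 lost, 6 gained). In KO against WT gains outnumbered losses under each setting run. Of 49 counts recomputed for the whole set under another setting, 29 stayed within 1.5 times of the reported one and 20 moved. With windows of 10 kb, 2 regions were gained in AID_aux against AID_ctrl, 4 lost in AID_wash against AID_aux, 1 gained in AID_wash against AID_ctrl and 1 lost in KO against WT. Requiring peaks to cover 50% of a region gave 5 lost in KO against WT and 0 genes with a start called in all 4 KO and WT libraries. That 0 says nothing about the starts. A single 500 bp window is too short to cover 50% of the stretch reaching 500 bp to either side of a start. With the top 50% of each degron list, 0 were gained in AID_aux against AID_ctrl, 1 region was lower and 0 were higher in fold enrichment, 2 were lost in AID_wash against AID_aux, 0 were gained in AID_wash against AID_ctrl and 5 gene starts were called in all 6 degron libraries. With degron lists shortened to equal length, 3 were gained in AID_aux against AID_ctrl and 0 were higher in fold enrichment, AID_wash against AID_aux had 3 lost and 5 gained, and AID_wash against AID_ctrl had 2 lost and 5 gained. At a ratio of 1.25, 8 regions were lower and 7 higher in AID_aux. The cause was not tested.

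With 1 library left out, where a single call then decides its group, AID_aux against AID_ctrl had 4 to 11 lost and 8 to 15 gained, with 3 to 7 lower and 1 to 2 higher in fold enrichment. AID_wash against AID_aux had 9 to 15 lost and 5 to 9 gained, AID_wash against AID_ctrl 4 to 14 and 4 to 9, and KO against WT 5 to 17 and 30 to 63. Gene starts called in all degron libraries stayed at 8 and in all KO and WT libraries were 6 to 7. The KO and WT lists could not be shortened for want of a score. Depth is unknown, so a missing call cannot be told apart from too few reads.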
